A study of Mus musculus with 8 samples.

Results

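The genes described here are the hydroxylases and folding chaperones that prepare collagen in the endoplasmic reticulum, together with the enhancer of the proteinase that trims it after secretion. The set was chosen by symbol and holds 10 genes (P4ha1, P4ha2, P4ha3, P4hb, Plod1, Plod2, Plod3, Serpinh1, Fkbp10 and Pcolce) of the 22274 in the count table, and all 10 were found and tested. The cells were cultured primary fibroblasts of the mouse heart, the cell type that lays down most of its collagen. All libraries came from cells treated with TGF-b, which turns fibroblasts into contractile myofibroblasts, so no untreated cells entered the comparison. There were 4 libraries labelled GFP, the empty vector, and 4 labelled OEIRF7, for overexpression of the transcription factor IRF7. The labels do not state the age, sex, strain or genotype of the mice, nor whether the 4 libraries of a group came from separate animals or cultures, so p-values measure the spread between these libraries, which may be technical. The study's text names an adenoviral vector and its reagent list a human IRF7 with a FLAG tag, whereas the series' description names an adeno-associated virus.

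Collagen chains enter the endoplasmic reticulum unfolded. Prolyl 4-hydroxylase, made of catalytic alpha subunits (P4ha1, P4ha2 or P4ha3) and the beta subunit P4hb, which is also a protein disulfide isomerase, hydroxylates prolines and so lets the triple helix hold at body temperature. The lysyl hydroxylases Plod1, Plod2 and Plod3 hydroxylate lysines that later carry sugars and crosslinks, Serpinh1 (HSP47) binds the folded helix until it leaves for the Golgi, Fkbp10 (FKBP65) is a prolyl isomerase that works with the Plod2 enzyme, and the secreted Pcolce speeds the removal of the C-propeptide by Bmp1. In fibrosis these genes are usually expressed at high levels by myofibroblasts, and the crosslinks that depend on Plod2 are known for making scar collagen resistant to turnover.

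The counts summed to between 24454801 and 28658826 per library, and a single member had between 391 and 45481 counts in a library. Mouse Irf7 had 2861, 3680, 2272 and 3291 counts in the GFP libraries and 385, 421, 380 and 404 in the OEIRF7 libraries, a log2 fold change of -2.96 (SE 0.12, edgeR adjusted p = 7.72e-11). Mouse Irf7 was therefore lower in the libraries labelled as overexpressing. Counts of the mouse gene are no check of a human transgene, but they could include a mouse one, and a fall would then run against the labels. Which vector was used was not tested, so every direction below is between libraries as labelled. All 9 fibroblast markers were detected, with summed levels of 14507 to 14887 CPM (counts scaled to the library size after TMM adjustment) in GFP and 13525 to 14309 in OEIRF7, and 7 of the 9 differed at adjusted p under 0.05 (2 higher and 5 lower). Of 5 cardiomyocyte markers, Myh6, Tnni3, Ryr2 and Nppa were below 1 CPM in every library. The remaining marker, Tnnt2, was tested and called lower (log2 fold change -0.54), and the summed levels were 9.80 to 13.5 CPM in GFP and 7.42 to 9.69 in OEIRF7. Summed levels were 176 to 181 against 167 to 184 CPM for 5 endothelial markers, 249.9 to 299 against 306 to 339 for 5 macrophage markers, 65.7 to 72.4 against 77.3 to 97.3 for 5 mural markers and 72.4 to 88.6 against 58.3 to 65.8 for 5 epicardial or mesothelial markers, with Kcnj8 and Wt1 below 1 CPM throughout. Of the tested markers, 1 endothelial was higher and 1 lower, 3 macrophage were higher and 0 lower, 2 mural were higher and 1 lower, and 2 epicardial or mesothelial were higher and 1 lower, so the last sum fell although the median log2 fold change of that list was 0.19. The part of these shifts in the results below was not tested, and in bulk RNA fewer cells of a type and less RNA per cell cannot be told apart.

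The machinery did not move as a block. Of the 10 genes, 5 were higher in the OEIRF7 libraries (Plod1, P4ha2, P4ha3, Plod3 and P4hb), 4 were lower (Pcolce, Serpinh1, Plod2 and Fkbp10) and P4ha1 did not pass the test at an edgeR adjusted p under 0.05. Among all 13533 genes tested 58.9% passed, 29.0% as higher and 29.9% as lower, so most genes of the table differed between the groups, and abundant genes were measured with more precision (7 of the 10 genes were among the 1000 highest by CPM). The groups did not overlap in CPM for 8 of the 10, against 53.8% of all genes tested. No member passed 1.5-fold together with the adjusted p, which 18.9% of all genes did. The median log2 fold change was 0.06 over the 10 genes and 0.00 over all genes tested, and the median size of the change, without its sign, was 0.30 and 0.25. A larger change than that of Plod1, the member that moved most, was found in 25.5% of the genes tested.

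**Figure D1:**
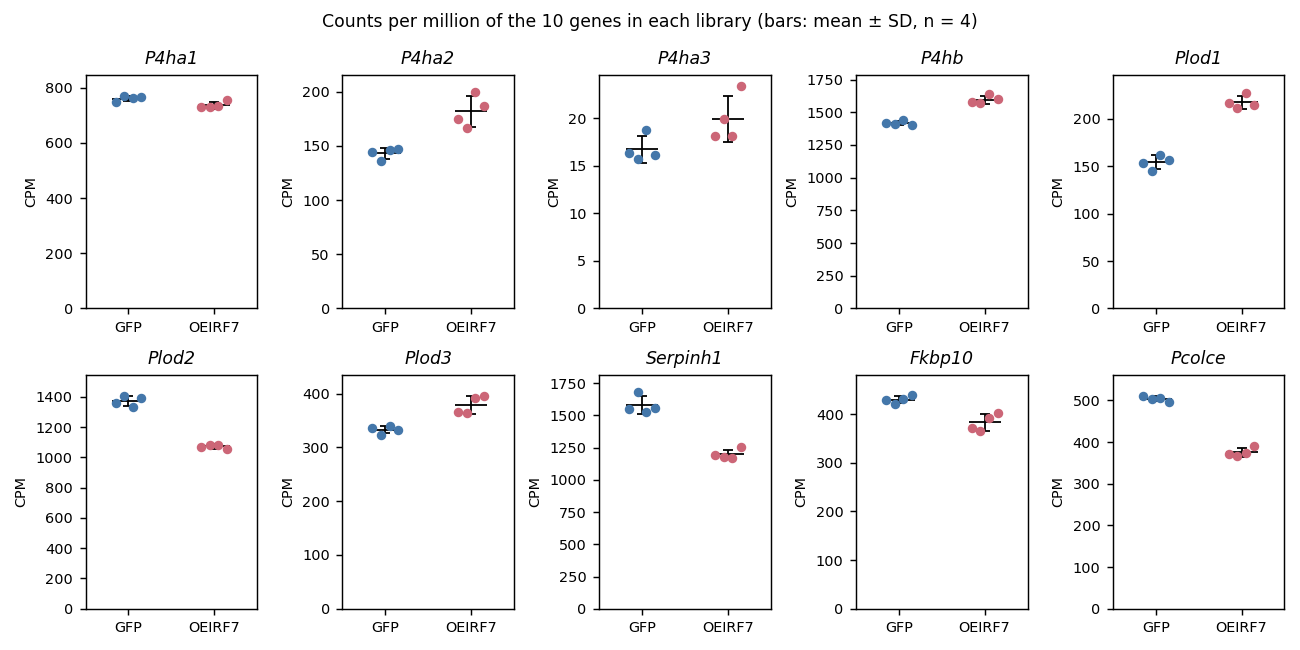
CPM (vertical axis, linear from 0) of each of the 10 genes in the 4 GFP (blue) and 4 OEIRF7 (red) libraries. Points are libraries and bars the mean ± SD. The groups overlap for P4ha1 and P4ha3 and are apart for the other 8 genes.

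Of the catalytic prolyl 4-hydroxylase subunits, P4ha2 rose, P4ha3 rose less surely and P4ha1 did not pass the test. P4ha1 (ENSMUSG00000019916, GRCm38 chr10:59323296-59373304, plus strand), the main alpha subunit in most cells, had 746, 769, 764 and 764 CPM in GFP replicates 1 to 4 and 728, 728, 734 and 755 in OEIRF7 replicates 1 to 4. The groups overlapped, with OEIRF7 replicate 4 above GFP replicate 1, and the log2 fold change of -0.05 (SE 0.03, 95% interval -0.10 to 0.01) had an adjusted p of 0.148 in edgeR and an unadjusted p of 0.057 in the exact two-sided permutation test. The interval therefore leaves room for a small fall and for next to no rise. P4ha2 (ENSMUSG00000018906, chr11:54100095-54131665, plus strand), the alpha subunit prominent in cartilage and endothelium, had 145, 136, 146 and 147 CPM in GFP and 175, 167, 199 and 187 in OEIRF7. Every OEIRF7 library was above every GFP library, and the means of 143 ± 5.21 and 182 ± 14.3 CPM (SD, n = 4) differed 1.27-fold (log2 fold change 0.34, SE 0.05, adjusted p = 3.34e-05 by edgeR, exact permutation p = 0.029, the smallest that 4 against 4 can give). P4ha3 (ENSMUSG00000051048, chr7:100285520-100319699, plus strand), the rare alpha subunit, had 16.4, 15.7, 18.8 and 16.1 CPM in GFP and 18.2, 20.0, 18.2 and 23.4 in OEIRF7. Here GFP replicate 3 lay above OEIRF7 replicates 1 and 3, and the log2 fold change of 0.25 (SE 0.09, adjusted p = 0.0223 by edgeR, exact permutation p = 0.086) was no longer called when GFP replicate 1, 2 or 4 or OEIRF7 replicate 4 was left out (adjusted p from 0.0545 to 0.0832).

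The regions upstream of P4ha1 and P4ha2 are shown because both genes are known targets of the hypoxia-inducible factor, while P4ha2 rose here and P4ha1 did not pass the test. Both are the 250 bases before the RefSeq transcription start on GRCm38.p6, written 5′ to 3′ on the gene's strand (P4ha1 at chr10:59323046-59323295 and P4ha2 at chr11:54100674-54100923, both plus strand). For P4ha2 this start lies within the gene span given above (from 54100095), so its stretch does too, unlike that of P4ha1. Capitals mark the core letters of the hypoxia response element, ACGTG or GCGTG, on either strand, and no marked stretch overlapped another.
P4ha1: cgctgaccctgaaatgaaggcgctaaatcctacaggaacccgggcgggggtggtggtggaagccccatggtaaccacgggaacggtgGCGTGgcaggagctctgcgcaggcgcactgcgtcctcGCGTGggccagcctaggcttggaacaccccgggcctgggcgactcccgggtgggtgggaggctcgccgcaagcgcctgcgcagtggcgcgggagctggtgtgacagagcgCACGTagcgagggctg
P4ha2: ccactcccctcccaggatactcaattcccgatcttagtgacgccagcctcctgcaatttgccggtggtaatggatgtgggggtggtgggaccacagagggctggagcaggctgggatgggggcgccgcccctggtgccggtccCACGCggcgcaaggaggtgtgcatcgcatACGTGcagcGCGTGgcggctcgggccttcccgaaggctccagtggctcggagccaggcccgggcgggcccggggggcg
In the 300-base windows that also take in the 50 bases after the start, ACGTG occurred once for P4ha1 and 2 times for P4ha2, whose other copy lies past the start and is not printed, and GCGTG occurred 2 times for each. Such short words are common, being present in 19.6% (ACGTG) and 32.4% (GCGTG) of the 32851 RefSeq promoter windows of this length, and a match is a description of the letters and not a bound site.

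P4hb (ENSMUSG00000025130, chr11:120560298-120573253, minus strand), the subunit shared by all 3 alpha subunits and the disulfide isomerase itself, had 1420, 1413, 1437 and 1399 CPM in GFP and 1579, 1568, 1637 and 1599 in OEIRF7. All OEIRF7 libraries were above all GFP libraries, but the difference was small (1.13-fold, log2 fold change 0.17, SE 0.03, adjusted p = 3.45e-05 by edgeR). Levels of different genes are compared below only as FPKM, the deposited fragments per kilobase of gene scaled to library size, which take gene length into account. On that scale the summed alpha subunits rose a little, from 317 ± 5.36 to 334 FPKM, whereas P4hb rose more, so that alpha subunit transcripts per 100 of P4hb were 63.1, 63.9, 64.5 and 66.4 in GFP and 59.0, 58.7, 58.9 and 61.1 in OEIRF7. The ratio was lower in each OEIRF7 library than in each GFP library (64.5 ± 1.41 against 59.4 ± 1.12). Since P4hb also serves as a general disulfide isomerase, its transcript is not reserved for the hydroxylase.

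Within the alpha subunits the makeup shifted from P4ha1 towards P4ha2. P4ha1 made up 76.7%, 78.2%, 76.5% and 76.4% of their summed FPKM in GFP and 72.8%, 73.5%, 70.4% and 71.8% in OEIRF7. The share of P4ha2 was 21.0%, 19.8%, 21.0% and 21.5% in GFP and 24.9%, 23.9%, 27.3% and 25.3% in OEIRF7, again without overlap, and the ratio of P4ha1 to P4ha2 went from 3.70 to 2.86. P4ha3 held 2.23% and 2.56% of the sum, with the groups overlapping. P4ha1 thus remained the predominant alpha subunit transcript in all 8 libraries. These shares are descriptions of the deposited FPKM and carry no test.

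The lysyl hydroxylases diverged, with Plod1 and Plod3 higher and Plod2 lower. Plod1 (ENSMUSG00000019055, chr4:147909753-147936767, minus strand), whose enzyme LH1 hydroxylates lysines of the triple helix, had 153, 145, 162 and 157 CPM in GFP and 217, 211, 227 and 215 in OEIRF7. The groups were far apart relative to their spread (154 ± 7.31 against 218 ± 6.78 CPM, n = 4), and the 1.41-fold rise had a log2 fold change of 0.50 (SE 0.04, 95% interval 0.41 to 0.58, adjusted p = 6.4e-08 by edgeR, exact permutation p = 0.029). Plod2 (ENSMUSG00000032374, chr9:92542223-92608428, plus strand), whose enzyme LH2 hydroxylates the telopeptides and sets the type of crosslink, had 1359, 1405, 1332 and 1391 CPM in GFP and 1065, 1085, 1084 and 1056 in OEIRF7. Every OEIRF7 library was lower, and the mean went from 1372 ± 32.7 to 1072 ± 14.3 CPM (log2 fold change -0.36, SE 0.03, adjusted p = 3.47e-08 by edgeR, exact permutation p = 0.029). Plod3 (ENSMUSG00000004846, chr5:136987019-136996648, plus strand), whose enzyme LH3 also adds sugars to hydroxylysine, had 337, 324, 340.1 and 332 CPM in GFP and 366, 364, 392 and 395 in OEIRF7. It rose 1.14-fold without overlap (log2 fold change 0.19, SE 0.04, adjusted p = 0.000359 by edgeR), and Znhit1 overlaps it on the opposite strand by 1003 bases with at most 615 counts in a library, so some of its reads are uncertain because the strand setting of the counting was not stated.

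Plod2 stayed the most abundant of the 3 lysyl hydroxylase transcripts, with a smaller share. Plod2 took 70.8%, 72.0%, 69.7% and 71.2% of the summed FPKM of the family in GFP and 61.7%, 62.2%, 60.8% and 60.3% in OEIRF7. The share of Plod1 went from 9.28% ± 0.46 to 14.2% ± 0.31 and that of Plod3 from 19.8% ± 0.50 to 24.5% ± 0.91 (SD, n = 4), each without overlap. FPKM of Plod2 was 7.66, 8.25, 7.07 and 7.68 times that of Plod1 in GFP and 4.28, 4.43, 4.18 and 4.34 times in OEIRF7. The summed family fell from 523 ± 5.83 to 482 FPKM, because the fall of Plod2 was larger than the rises of the other two together.

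**Figure D2:**
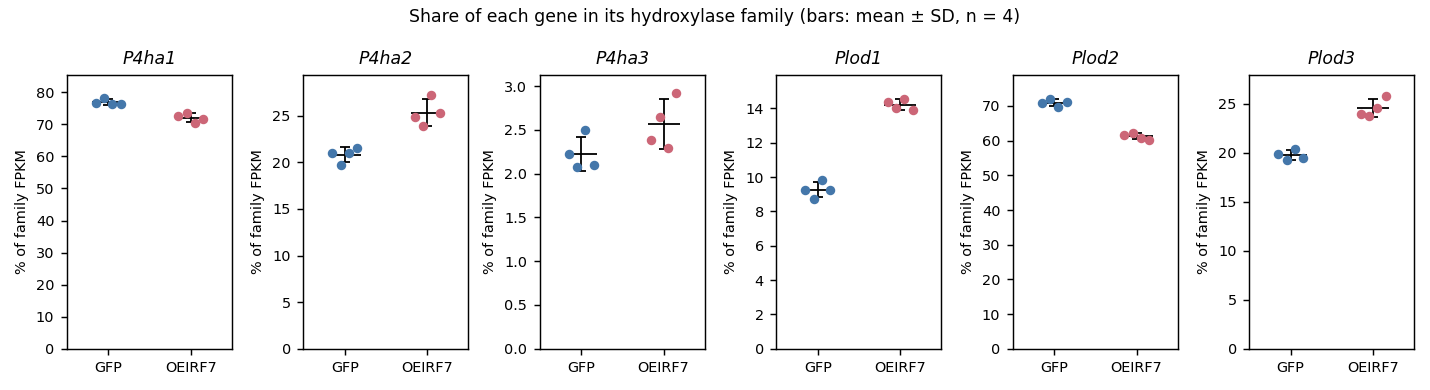
Share of each gene in the summed FPKM of its family (vertical axis, percent, linear from 0), for the 3 alpha subunits of prolyl 4-hydroxylase and the 3 lysyl hydroxylases, in the 4 GFP (blue) and 4 OEIRF7 (red) libraries. Points are libraries and bars the mean ± SD, and the groups overlap for P4ha3 alone, with P4ha1 and Plod2 lower and P4ha2, Plod1 and Plod3 higher in OEIRF7.

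Upstream of Plod3 lay the single copy, among the 8 member windows in the RefSeq table, of the core of an interferon-stimulated response element, which interferon regulatory factors are known to bind. It was searched as a pair of GAAA half-sites 2 bases apart on either strand, and 3.44% of all promoter windows held it. The study's text gives the element with a C after the pair, where this copy has a G, so that longer form is not met. The 250 bases before the start of Plod3 (GRCm38.p6, chr5:136986769-136987018, plus strand) are shown with that pair, read here on the other strand, and the hypoxia response cores in capitals.
Plod3: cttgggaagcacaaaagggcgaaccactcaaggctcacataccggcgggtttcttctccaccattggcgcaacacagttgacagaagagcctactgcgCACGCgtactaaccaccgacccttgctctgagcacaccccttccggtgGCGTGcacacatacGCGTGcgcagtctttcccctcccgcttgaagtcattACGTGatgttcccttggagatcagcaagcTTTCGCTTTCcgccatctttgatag
The window held GCGTG 3 times and ACGTG once, and no marked stretch overlapped another. Plod1, the member with the largest rise, held GCGTG 2 times and neither of the other cores. Windows of Plod2 and Fkbp10 were not analysed here. A CCAAT box was found for P4hb and Plod3 and the letters TATAAA for P4ha1 and Plod1, present in 37.4% and 13.6% of all windows. The TATAAA copy of P4ha1 lies past the start, and that of Plod1, on the other strand, near the upstream end of its window. Neither the endoplasmic reticulum stress element nor the heat shock element (0.119% and 0.603% of all windows) was found for any of the 8, which says no more than that those letters are not in these windows.

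The dedicated collagen chaperones were both lower in OEIRF7. Serpinh1 (ENSMUSG00000070436, chr7:99345376-99353239, minus strand), which encodes HSP47, had 1549.9, 1684, 1528 and 1559 CPM in GFP and 1189.9, 1177, 1171 and 1253 in OEIRF7. The highest OEIRF7 library was below the lowest GFP library, and the mean went from 1580.4 ± 70.2 to 1198 ± 37.8 CPM (n = 4), 24.2% lower (log2 fold change -0.40, SE 0.03, adjusted p = 1.4e-07 by edgeR, exact permutation p = 0.029). Fkbp10 (ENSMUSG00000001555, chr11:100415697-100424824, plus strand), the isomerase FKBP65, had 429, 421, 431 and 439 CPM in GFP and 371, 366, 392 and 403 in OEIRF7. Its fall was smaller, with a log2 fold change of -0.17 (SE 0.03, adjusted p = 0.000813 by edgeR, exact permutation p = 0.029), and the groups did not overlap. Nt5c3b overlaps Fkbp10 on the opposite strand by 2504 bases with at most 505 counts in a library. Serpinh1 is shown with the 250 bases before its start (GRCm38.p6, chr7:99353240-99353489, minus strand) because it had the highest FPKM of the 10 genes in GFP and because its gene is a known heat shock target, with the hypoxia response core in capitals.
Serpinh1: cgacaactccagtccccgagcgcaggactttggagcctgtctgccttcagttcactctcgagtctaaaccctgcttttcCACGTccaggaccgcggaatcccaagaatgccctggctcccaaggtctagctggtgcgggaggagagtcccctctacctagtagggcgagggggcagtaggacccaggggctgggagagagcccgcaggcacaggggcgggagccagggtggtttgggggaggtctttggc
ACGTG occurred once in its window and GCGTG not at all.

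Pcolce, which acts outside the cell, had the largest fall of the 10 genes. Pcolce (ENSMUSG00000029718, chr5:137605103-137613784, minus strand) had 511, 503, 505 and 496 CPM in GFP and 372, 367, 373 and 391 in OEIRF7. The spread within a group was small beside the gap between them (504 ± 6.29 against 376 ± 10.5 CPM, n = 4), and the level was 25.4% lower (log2 fold change -0.42, SE 0.03, 95% interval -0.49 to -0.36, adjusted p = 1.88e-08 by edgeR, exact permutation p = 0.029). Fbxo24 shares 1282 bases with Pcolce on the same strand but had at most 11 counts in a library.

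**Figure D3:**
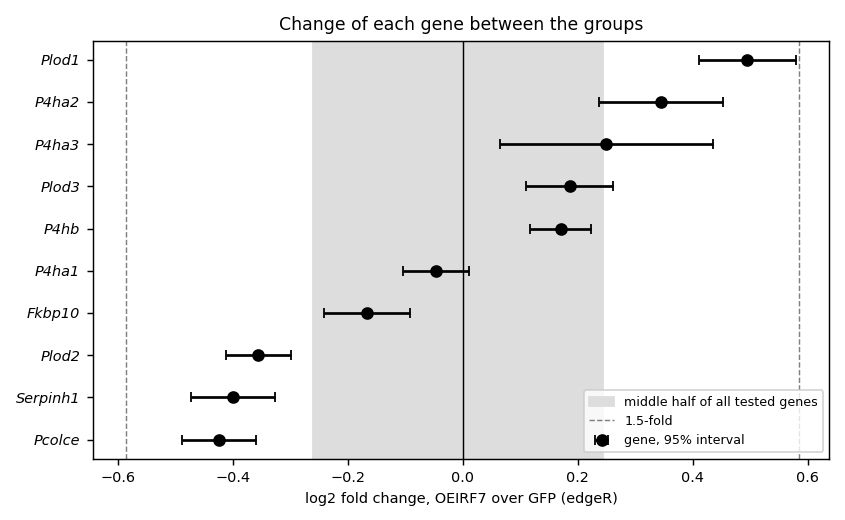
Log2 fold change of OEIRF7 over GFP (horizontal axis) of the 10 genes from edgeR, with bars for the 95% interval. The grey band is the middle 50% of all tested genes, from -0.26 to 0.24, and the dashed lines mark 1.5-fold. Plod1 lies furthest right at 0.50 and Pcolce furthest left at -0.42, and no estimate reaches 1.5-fold.

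Ranked by FPKM within GFP, the order was Serpinh1 (722 ± 34.1), P4hb (492), Plod2 (371), Pcolce (322), P4ha1 (244), Fkbp10 (165), Plod3 (103), P4ha2 (66.1), Plod1 (48.5) and P4ha3 (7.07), and no neighbours in it overlapped. In OEIRF7 the order of the lower 5 ranks was kept, from Fkbp10 (149.6 FPKM) over Plod3 (118), P4ha2 (84.7) and Plod1 (68.6) to P4ha3 (8.57). At the top, P4hb (563 ± 7.79) and Serpinh1 (555 ± 19.9) could not be ordered, because their libraries overlapped, nor could Pcolce (243 ± 8.50) and P4ha1 (241 ± 4.20) in the middle. In GFP, by contrast, Serpinh1 stood above P4hb in every library, at 695 to 771 against 483 to 498 FPKM.

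The substrates of these enzymes also changed, so each gene was set against the summed FPKM of Col1a1, Col1a2 and Col3a1, the chains of type I and type III collagen. Col1a1 was lower in OEIRF7 (log2 fold change -0.16, adjusted p = 0.000524 by edgeR) and Col3a1 more so (-0.53, adjusted p = 6.52e-07), while Col1a2 did not pass the test (-0.05, adjusted p = 0.103), and the sum went from 1754 ± 34.3 to 1581 ± 54.8 FPKM (n = 4). Per 1000 FPKM of these chains, Plod1 went from 27.7 to 43.4, P4ha2 from 37.7 to 53.6, P4hb from 281 to 356 and Plod3 from 59.0 to 74.8. All 4 were higher in every OEIRF7 library than in any GFP library. P4ha1, which had not passed the test by itself, was at 133, 139.9, 143 and 141 per 1000 in GFP and 154, 156, 151 and 149 in OEIRF7, which no longer overlapped. P4ha3 went from 4.03 to 5.41 per 1000, without overlap. Lower relative to the chains were Serpinh1 at 411 against 351, Plod2 at 211 against 187 and Pcolce at 184 against 154 per 1000, without overlap. This holds for the sum of these 3 chains and not for each chain, since Col3a1 alone fell by more (-0.53) than Serpinh1 (-0.40), Plod2 (-0.36) or Pcolce (-0.42). Fkbp10 kept step with the chains (94.0 ± 3.03 against 94.6 ± 1.55, groups overlapping). With all 11 fibrillar chains as the denominator, chosen after the data were seen, the summed chains fell further (2869 to 2378 FPKM), the log2 ratios of Serpinh1 and Pcolce shrank to -0.11 and -0.14, Plod2 overlapped between the groups and Fkbp10 was higher.

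**Figure D4:**
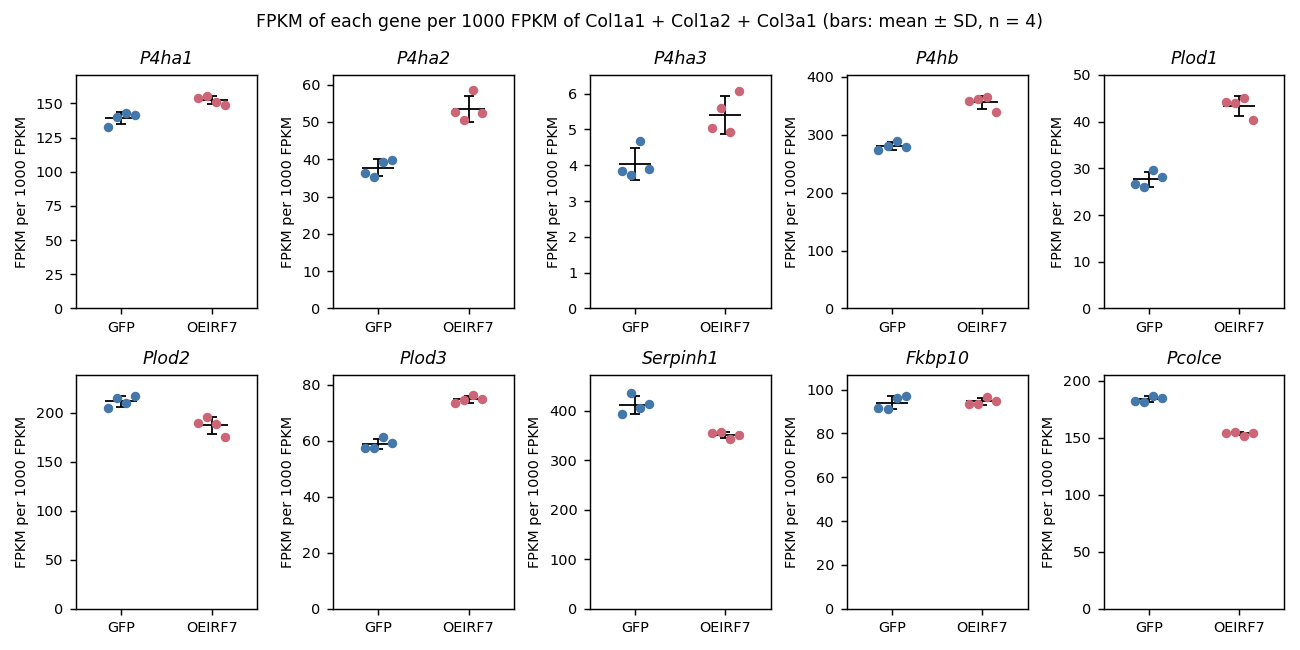
FPKM of each of the 10 genes per 1000 FPKM of summed Col1a1, Col1a2 and Col3a1 (vertical axis, linear from 0) in the 4 GFP (blue) and 4 OEIRF7 (red) libraries. Points are libraries and bars the mean ± SD. Serpinh1, Plod2 and Pcolce sit lower in OEIRF7, Fkbp10 overlaps and the other 6 genes sit higher.

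The neighbouring steps of collagen assembly were split between rises and falls, as were the genes of the whole table. Among all genes tested, 29.0% were called higher and 29.9% lower, and the list counts here and below are to be read beside these shares. Of 6 other prolyl hydroxylation genes, 2 rose and 2 fell with a median log2 fold change of -0.08. P3h1, the prolyl 3-hydroxylase that works with Crtap and Ppib, went from 237 ± 9.21 to 284 ± 7.72 CPM (log2 fold change 0.26, adjusted p = 1.66e-05 by edgeR), and P3h4, a partner of lysyl hydroxylase 1, went from 112 to 96.0 CPM (-0.22, adjusted p = 0.000117). In the hydroxylysine glycosylation pair, Colgalt1, which adds galactose to the residues that the Plod enzymes make, went from 322 ± 8.61 to 396 ± 4.75 CPM (log2 fold change 0.30, adjusted p = 9.36e-07), and Colgalt2 did not pass the test (median of the pair 0.41). Colgalt2 was barely detected, at 0.55 CPM in GFP and 0.79 in OEIRF7, and its uncertain value (0.53, SE 0.38) lifts that median above Colgalt1. Of 5 other FKBP prolyl isomerases of the endoplasmic reticulum, 2 rose and 1 fell (median 0.17). The fall, of Fkbp7, was not called by DESeq2 or by limma on log2(FPKM + 1), and the rises were Fkbp11 (18.3 to 26.7 CPM, log2 fold change 0.54) and Fkbp14 (136 to 156 CPM, 0.20), an isomerase of the same kind as Fkbp10, which fell.

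General chaperones and disulfide isomerases of the endoplasmic reticulum moved upward more often than down, with 7 of 14 higher, 3 lower and 4 not called (median log2 fold change 0.07). Ero1a, the oxidase that recharges P4hb and other disulfide isomerases, had 163, 158, 170.1 and 169 CPM in GFP and 313, 311, 323 and 315 in OEIRF7, without overlap (log2 fold change 0.93, SE 0.03, adjusted p = 2.36e-11 by edgeR). Hspa5, the main Hsp70 chaperone of this compartment, went from 767 ± 19.3 to 1186 ± 46.4 CPM (0.63, adjusted p = 6.82e-10). Both rises were larger than that of P4hb and opposite to the falls of Serpinh1 and Fkbp10. The 3 falls of the list were Pdia4 (-0.46, adjusted p = 1.39e-07 by edgeR), Dnajc3 (-0.17) and Hyou1 (-0.11). That of Pdia4 was larger than the fall of Serpinh1, so the general chaperones did not all go against the collagen chaperones. Of 12 procollagen export genes, 6 rose and 2 fell (median 0.12). Sec23a, a coat protein of the carriers that leave the endoplasmic reticulum, went from 383 to 511 CPM (0.41, adjusted p = 3.05e-07), and Creb3l1, a transcription factor of secretory and collagen genes, from 46.2 to 35.8 CPM (-0.37, adjusted p = 0.0011).

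Outside the cell, 2 of 6 tested genes of the procollagen proteinases and Pcolce2 rose and 1 fell (median 0.03), and Tll2 was below 1 CPM in every library. Pcolce2, the paralogue of Pcolce, had 35.9, 38.9, 42.7 and 39.4 CPM in GFP and 51.7, 52.8, 54.0 and 53.1 in OEIRF7, the opposite direction to Pcolce (log2 fold change 0.43, SE 0.05, adjusted p = 3.21e-06 by edgeR). Adamts2, which removes the N-propeptide, was lower (236 to 178 CPM, -0.40, adjusted p = 1.66e-05). Of 5 lysyl oxidases, which crosslink the lysines that the Plod enzymes hydroxylate, 2 rose and 2 fell (median 0.06). Loxl3 went from 189 to 124 CPM (-0.61), and Loxl4 from 159 to 209.7 CPM with the groups overlapping (0.40). The fibrillar collagen chains were mostly lower, 7 of 10 tested against 2 higher (median -0.41), and the rises were in the minor chains Col5a3 (17.6 to 57.7 CPM, 1.71) and Col27a1 (8.63 to 15.2 CPM, 0.82).

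Since P4ha1, P4ha2 and Plod2 are known hypoxia-induced genes, 14 others of that kind were set beside them. Of these, 13 were tested, 12 were higher and Adm was lower (median log2 fold change 0.58), with Egln3, an oxygen sensor, going from 7.22 to 15.9 CPM (1.14, adjusted p = 2.43e-08 by edgeR) and Bnip3, a mitophagy receptor, from 67.2 ± 5.94 to 142 ± 24.4 CPM (1.08, adjusted p = 1.98e-07). Beside these values, P4ha2 was at 0.34, P4ha1 at -0.05 and Plod2 at -0.36.

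**Figure D5:**
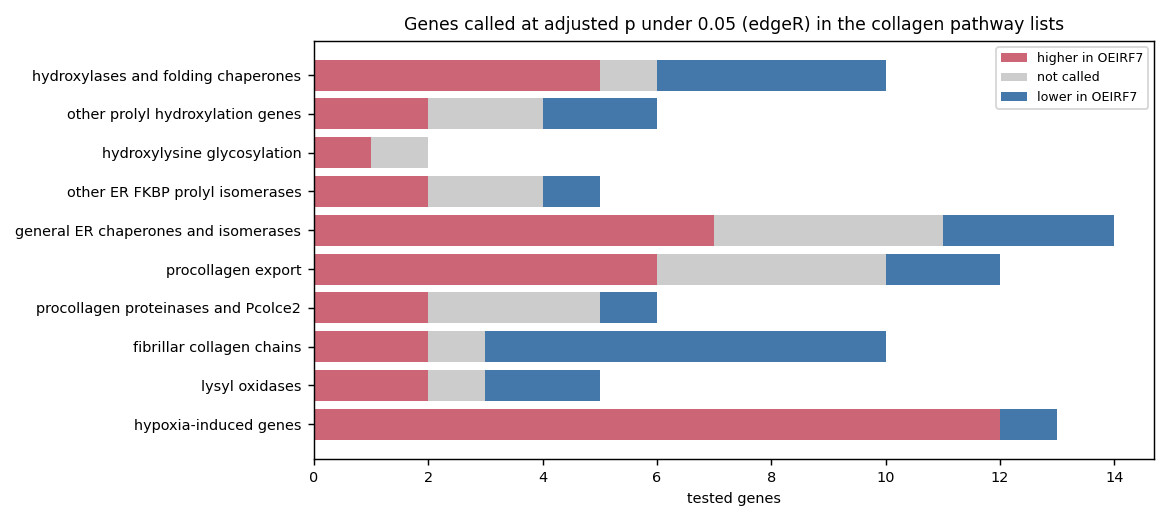
Number of tested genes (horizontal axis) in the 10 genes described here and in 9 lists of related genes, coloured by the edgeR call at an adjusted p under 0.05 as higher in OEIRF7 (red), not called (grey) or lower (blue). The fibrillar collagen chains were mostly lower (7 of 10) and the hypoxia-induced genes mostly higher (12 of 13), with the hydroxylases and chaperones between them at 5 higher and 4 lower. Of all genes tested, 29.0% were called higher and 29.9% lower.

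The profiles most like those of the extreme members were found by the root mean square difference of log2 CPM over the 8 libraries, after each gene was centred on its mean. For Plod1 they were Klhl21 (0.022), Ehbp1l1 (0.026) and Kdm2a (0.028), whose log2 fold changes were 0.50, 0.51 and 0.51. For Pcolce they were Cd200 (0.021), Rcan3 (0.022) and Slc19a2 (0.022), whose log2 fold changes were -0.42, -0.41 and -0.41. These fold changes match because the genes were picked by profile. Neither set of 3 held another gene of the collagen machinery, which says little for so few genes picked from all those tested.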

How the data were processed

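RNA of 8 libraries was sequenced, 4 labelled GFP and 4 labelled OEIRF7. Per the methods, reads were trimmed (Trimmomatic) and aligned to GRCm38 (HISAT2), and the authors deposited raw counts per gene from HTSeq-count, and FPKM per gene from Cufflinks. Versions and the strand setting were not stated. Columns that the authors deposited from their own comparison (mean FPKM, the log2 ratio of the means, p-value and FDR) were not used. In 121 symbols the letters GFP stood in place of others, and these symbols were restored by Ensembl identifier from GENCODE M21, which also gave coordinates.

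Counts were fitted in R 4.3.3 with edgeR 4.0.16 (filterByExpr, TMM, glmQLFit and glmQLFTest, no covariates), with Benjamini-Hochberg adjustment over 13533 genes. A prior count of 2 was added for log2 CPM. An exact two-sided permutation test of mean log2 CPM stands beside members. FPKM shares and ratios have no test. The fit was tested on simulated data. Replicates of a group differed by more than counting noise (chi-square per degree of freedom 2.69 to 8.67).

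The members, lists and rules were chosen with earlier results of these data known. Named genes are the 10 members, mouse Irf7, the 3 collagen denominators, up to 2 called genes of each list with the largest change and at least 5 CPM, and the 3 nearest profiles of the largest rise and fall. Colgalt2, Adm, Tll2, Fkbp7, Pdia4, Dnajc3, Hyou1, Tnnt2, the overlapping genes and markers named for low levels are named for what they showed. The alternatives tried were DESeq2 1.42.0, other scalings and filters, the replicate number as a block, limma 3.58.1 on log2(FPKM + 1) and log2(FPKM + 0.1), TMM-scaled CPM for ratios, and leaving out each library.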

Additional observations from a re-analysis of the deposited data

Results flagged for a closer look

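In 1 of 64 groups of 4 libraries checked, a single library stood far from the other 3. The summed alpha subunits of prolyl 4-hydroxylase per 100 FPKM of P4hb were 61.1 in OEIRF7 replicate 4 and 58.7, 58.9 and 59.0 in the other OEIRF7 libraries, a gap of 0.893 of the whole range, above the 95% critical value of Dixon's test for 4 values. Chance takes about 1 of 20 groups past that critical value. Even that library was below the lowest GFP library, at 63.1.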

How the results depend on the processing

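Members called higher numbered 4 or 5 and members called lower 4 under every alternative, and no member's fold change reversed. The log2 ratio of Fkbp10 to the 3 collagen chains, near 0 with the groups overlapping, took either sign when a library was left out. P4ha3 was the call that was lost, without GFP replicate 1, 2 or 4 or OEIRF7 replicate 4. The adjusted p of P4ha1 ranged from 0.0794 to 0.601. With the replicate block 8211 genes were called against 7969, limma on log2(FPKM + 1) called 7402, and leaving out a library called 7506 to 7775. Libraries with the same number correlated at 0.079, 0.095, 0.138 and 0.104, each more than with any other number, which is only a hint from the data, so the numbers were not taken as pairs. The block changed no member's call. With all 11 fibrillar chains as denominator, an alternative chosen after seeing the data, the log2 ratios became 0.25 (P4ha1), 0.63 (P4ha2), 0.46 (P4hb), 0.77 (Plod1), -0.056 (Plod2), 0.47 (Plod3), -0.11 (Serpinh1), 0.13 (Fkbp10) and -0.14 (Pcolce), since the summed chains fell further. Counts of called genes in the lists moved by at most 1 under DESeq2, the block and limma on log2(FPKM + 1). Of the falls, DESeq2 and limma left 1 of 2 other prolyl hydroxylation genes and 0 of 1 FKBP, and limma 1 of 2 export genes, the block called 2 proteinase genes in place of 1, and DESeq2 called 1 of 2 rises of lysyl oxidases. P4ha3 had the fewest counts of the members, 391 to 579 per library, and its CV of 8.36% in GFP and 12.3% in OEIRF7 was the highest among them.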
